A study of Rattus norvegicus with 18 samples.

Results

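The 6 control arrays of an 18-array rat series describe spinal cord material labelled as control. They were taken by their label, control, and they are 6 of 18 arrays. Of the other 12, 6 received bone morphogenetic protein (BMP) and 6 received ciliary neurotrophic factor (CNTF), both at 10 ng/mL and with a 4d entry read as 4 days. The control label states no agent and no day. The entry 14 NT in the control label was not interpreted. Nor was the letter F in the control titles, where BMP and CNTF titles have B and C. Whether the control material received any factor is therefore not known. The labels also name no strain, age, cell type or culture, and they do not state whether the arrays of a group stem from different animals or cultures, so the spread between arrays may be partly technical. Arrays are called by group and by the number from 1 to 6 in their title, which occurs once in each group.

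Spinal cord glia form a lineage that textbooks order by marker. Radial glia and neural stem cells carry Sox2, Vim and Nes. Oligodendrocyte precursors carry Pdgfra, the receptor for platelet-derived growth factor, with Olig1, Olig2 and the proteoglycan Cspg4, and they divide until they leave the cell cycle and turn on myelin genes such as Mbp. Astrocytes carry Slc1a3, Aldh1l1, Aqp4 and Gfap. BMP and CNTF are both known to act on such precursors, through SMAD proteins and through JAK kinases with STAT3.

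Values are log2(intensity + 116.655), where the constant is the 20th percentile of the whole table, so that a probe set with no signal sits near 6.87. Each gene is represented by its brightest probe set, which left 14217 named genes. Bright genes are the top 25% by control mean, at 12.36 or more (3555 genes, 25%). Dim genes are the bottom 25%, below 8.32 (3554 genes, 25%). Variable genes have an SD of at least 1 over the 6 controls (266 genes, 1.87%). These ranks order array signals and not RNA amounts, because probe sets differ in how strongly they bind.

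The 6 controls correlated with each other at 0.954 to 0.980 over all probe sets, and their median intensities lay between 666.5 and 770.2. The first principal component held 45.66% of their variance. It placed controls 2 and 3 at 29.79 and 39.50 and controls 4 and 5 at -37.88 and -37.34, with controls 1 and 6 between them at 1.72 and 4.21. The second component, with 18.11%, set control 1 apart at 35.06. The same 2 splits are described by gene below, from the values that the components were computed on.

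Signal of glial precursor, radial glial and early astroglial genes was high in every control. Pdgfra was 15.07, 15.02, 14.53, 14.26, 14.12 and 15.22 in controls 1 to 6, a mean of 14.71 ± 0.46 (SD, n = 6) and the 96.9th percentile of named genes. Every later ± is likewise an SD over the 6 controls. Its lowest values were those of controls 4 and 5. Slc1a3, a glutamate transporter of radial glia and astrocytes, varied less, at 15.31, 15.45, 14.88, 15.39, 15.10 and 14.99, a mean of 15.19 ± 0.23. Nes, an intermediate filament of neural stem cells, averaged 13.07 ± 0.44, and control 1 was highest at 13.87.

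Olig2 and Cspg4 were less bright than the other markers. Olig2, a transcription factor that specifies the oligodendrocyte lineage, was 12.39, 12.30, 12.34, 11.61, 10.85 and 12.70, a mean of 12.03 ± 0.68. Cspg4 averaged 10.99 ± 0.49, with 10.22 in control 3 and 11.54 in control 6. A second probe set for Olig2 read only 8.77 ± 0.36 and did not follow the first over the 6 arrays (r = 0.01), and other Slc1a3 probe sets read 9.75 and 13.48, so the rank of these genes depends on the probe set.

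**Figure D1:**
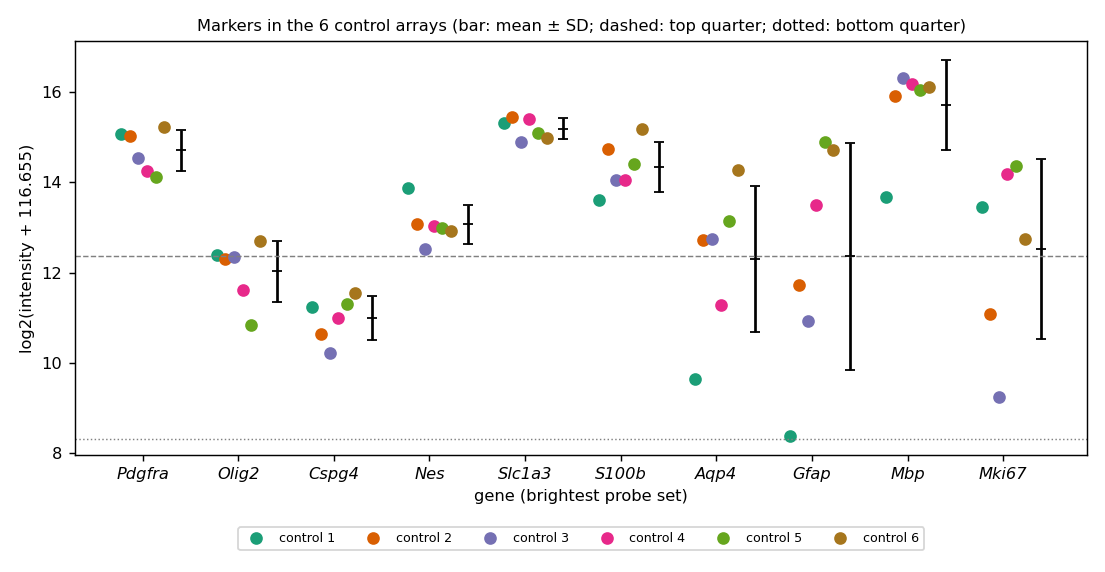
Signal of 10 fixed genes in each control array as log2(intensity + 116.655), with 1 point per array, coloured by title number, and a bar for mean ± SD over 6 arrays. Pdgfra and Slc1a3 stay above 14 in every array, while Gfap runs from 8.39 to 14.89, Mki67 from 9.24 to 14.37, and Mbp is low in control 1 alone at 13.68.

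The wider precursor list was bright as well. Of its 10 measured members, 8 were bright and none was dim, with a median percentile of 89.3. Olig1, a partner of Olig2, was the highest at 15.55 ± 0.13. Nkx2-2, a ventral spinal cord factor of the same lineage, averaged 14.52 ± 0.49. No precursor gene was variable. Radial glial and stem cell genes were bright in 10 of 14 cases and dim in none. Fabp7, a fatty acid binding protein of radial glia, was among the 15 brightest named genes at 16.90 ± 0.12, and the filament gene Vim averaged 16.57 ± 0.32. The lowest member was Sox1 at 8.32 ± 0.58.

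Myelin genes were present but uneven. Of 17 measured, 8 were bright, 5 were dim and 3 were variable. Mbp, a major protein of compact myelin, was 13.68 in control 1 and then 15.90, 16.30, 16.18, 16.05 and 16.12 in controls 2 to 6. Its mean was 15.71 ± 0.999, just under the variable threshold, and control 1 alone stood apart. Cnp, an enzyme of early oligodendrocytes, was steadier at 15.69 ± 0.29. The 5 dim members, Ermn at 7.79 among them, also included Mog at 8.28, Mobp at 7.60, Mal at 7.47 and Opalin at 7.23, a gene of mature oligodendrocytes.

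Control 1 was the lowest of the 6 for 14 of the 17 myelin genes, or 82.4%, against 17.7% of all named genes. The same array was lowest for 10 of 18 astrocyte genes (55.6%) and highest for 8 of 14 stem and radial glial genes (57.1%, against 16.1% of all named genes). Cldn11, a tight junction protein of myelin, was 11.31 in control 1 and 14.10 to 15.22 in the other 5. Mag, an adhesion protein of the inner myelin layer, was 10.06 in control 1 and 12.60 to 13.61 elsewhere. Enpp6, a marker of newly forming oligodendrocytes, was 7.18 in control 1 and reached 11.16 in control 3. The SD of Cldn11 was 1.495 with all 6 arrays and 0.45 without control 1, and that of Mbp dropped to 0.15, so both rest on that array. Other probe sets of Mbp followed the one shown (r = 0.98 for both).

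The astrocyte list was split between bright steady genes and a few that varied. Of 18 members, 10 were bright and 2 were dim. Aldoc, a glycolytic enzyme of astrocytes, averaged 15.76 ± 0.33, Gja1, which forms their gap junctions, 15.38 ± 0.30, and the calcium-binding protein S100b 14.34 ± 0.56. Gjb6, a second connexin, was dim at 7.62 ± 0.41, and so was the mature astrocyte glutamate transporter Slc1a2 at 8.29 ± 0.45.

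Gfap, the intermediate filament of mature and reactive astrocytes, had the largest SD of all named genes. It was 8.39 in control 1, 11.73 in control 2, 10.92 in control 3, 13.50 in control 4, 14.89 in control 5 and 14.72 in control 6. The controls thus ran from near the dim threshold to well inside the bright range, a range of 6.502 on the log2 scale around a mean of 12.36 ± 2.51. Without control 1 the SD was 1.78. Aqp4, the water channel of astrocyte endfeet, was 9.66, 12.73, 12.75, 11.29, 13.14 and 14.28, a mean of 12.31 ± 1.61, and control 1 was again lowest. Clu, a secreted chaperone, separated controls 1 to 3 (9.85 to 10.11) from controls 4 to 6 (11.94 to 12.56). Aldh1l1, a folate enzyme used as an astrocyte marker, ran another way, at 13.40 and 13.52 in controls 2 and 3 and 10.61 in control 5.

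Among these markers, 10 pairs were compared over the 6 controls by an exact permutation test of 720 pairings, two-sided, with Benjamini-Hochberg adjustment over the 10. Olig2 and Pdgfra moved together (Pearson r = 0.879, exact permutation p = 0.00417, adjusted p = 0.0417). This holds for the Olig2 probe set used, and the second one did not follow it over the 6 arrays (r = 0.01). Spearman's rho for Olig2 and Pdgfra was 0.943 (exact permutation p = 0.0167, adjusted p = 0.167). Without the 2 arrays farthest from the Olig2 median, r was 0.581. Leaving out arrays at an extreme can lower r by itself, so this value cannot tell whether the relation leans on them. Gfap and Mbp gave r = 0.751 (exact permutation p = 0.108, adjusted p = 0.542) and -0.193 without control 1. Gfap and Nes gave -0.546, and 0.526 without control 1. No other pair had an adjusted p under 0.542. With 6 arrays the smallest p the design allows is 0.00139 for r and 0.00278 for rho.

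Markers of other cells ranged from dim to intermediate, apart from 2 bright genes of the Schwann cell and neural crest list. None of 16 microglial and macrophage genes was bright and 14 were dim, among them Itgam, a leukocyte integrin, at 7.07 ± 0.08 and Cx3cr1, a chemokine receptor, at 7.82 ± 0.59. The highest was Cd68, a lysosomal protein, at 9.05 ± 0.19. Of 11 endothelial genes, 10 were dim, with Pecam1 at 7.29 ± 0.32 and Cldn5 at 7.85 ± 0.51. Erythroid genes were dim in 3 of 4 cases and ependymal genes in 2 of 5. The 16 fibroblast, pericyte and smooth muscle genes were higher, with 5 dim, none bright, and Col3a1, a fibrillar collagen, highest at 11.23 ± 0.89. Schwann cell and neural crest genes were dim in 5 of 10 cases, with Foxd3 at 7.33 ± 0.46. The 2 bright ones were Sox10 (13.24 ± 0.50) and Pmp22 (13.61 ± 0.49), and oligodendrocyte lineage cells carry Sox10 too.

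Neuronal genes were divided. Gap43, a growth cone protein, was bright at 15.51 ± 0.21, Map2, a microtubule protein of dendrites, at 15.38 ± 0.04, and Dcx, a microtubule protein of migrating neuroblasts, at 14.05 ± 0.31. A second Map2 probe set read 13.32 and ran the other way over the arrays (r = -0.74). Transmitter genes were low. Chat, which makes acetylcholine, averaged 7.30 ± 0.24, the glutamate transporter Slc17a7 7.49 ± 0.34, and Gad2, which makes GABA, 7.45 ± 0.57. In all, 6 of 20 were bright, 7 were dim and none was variable.

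**Figure D2:**
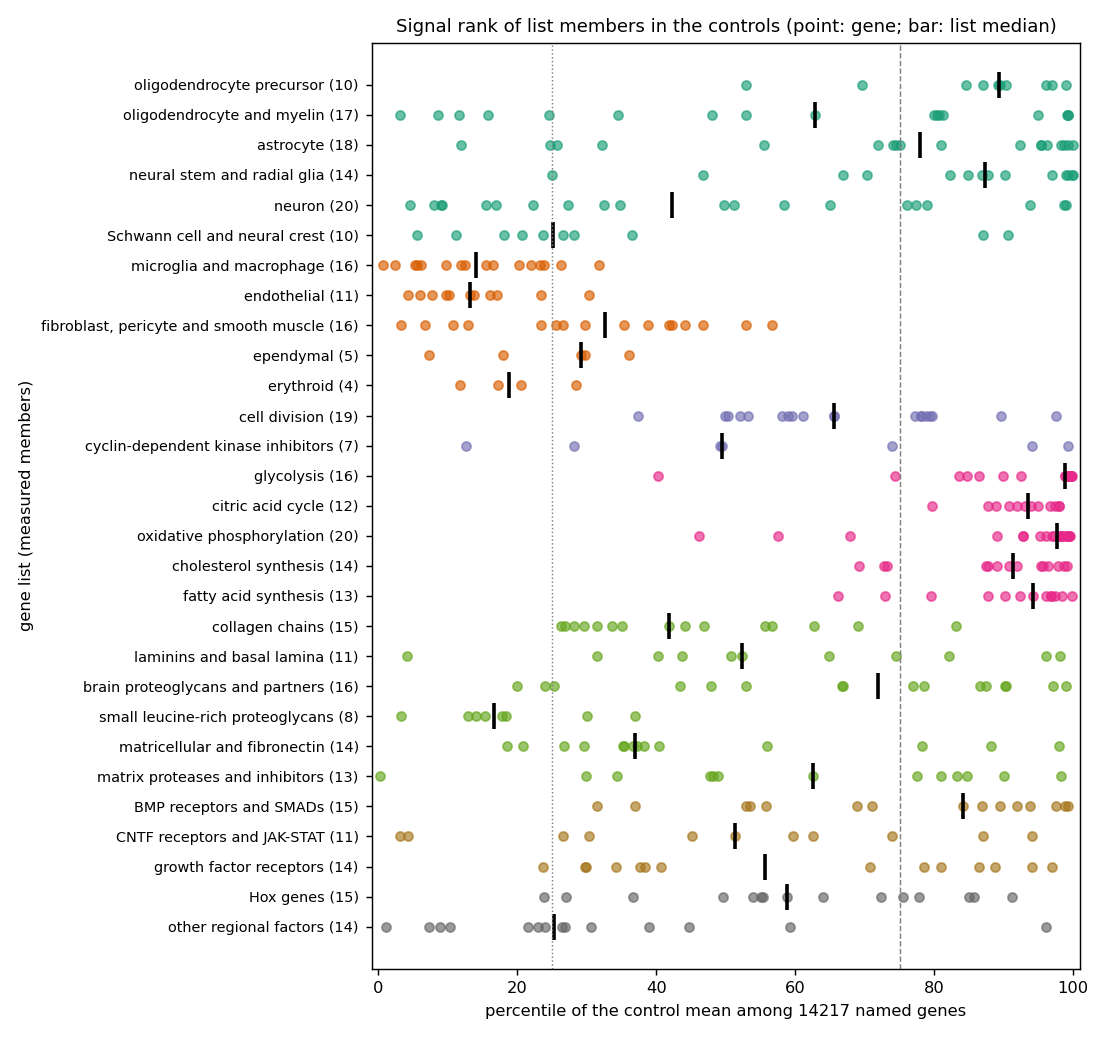
Percentile of the control mean among 14217 named genes for each measured member of 29 gene lists (1 point per gene, coloured by class of list, black bar for the list median, dotted and dashed lines at the 25th and 75th percentile). Glycolytic, citric acid cycle and oxidative phosphorylation genes cluster at the right, with list medians of 98.8, 93.5 and 97.7, and microglial and endothelial genes at the left, with medians of 14.0 and 13.1.

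Hox genes, which mark position along the body axis, were bright in 5 of 15 cases and dim in 1. Hoxa5 averaged 13.66 ± 0.25 and Hoxb6 13.14 ± 0.49, while Hoxd10, a lumbar gene, was dim at 8.23 ± 0.33. Among 14 other regional factors 7 were dim and only Nkx2-2 was bright. Otx2, a forebrain and midbrain gene, was at 7.41 ± 0.46, and Shh, the floor plate signal, at 7.10 ± 0.05.

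The 15 brightest named genes had means from 16.66 to 17.13. COX2 (17.13 ± 0.13) and COX1 (17.11 ± 0.13), subunits of cytochrome oxidase encoded by mitochondrial DNA, led the ranking, and Rpl7a, a ribosomal protein, followed at 17.01 ± 0.10. Ribosomal proteins made up 10 of the top 15 symbols, and the rest besides COX1 and COX2 were Fabp7, Tmsb4x and Actg1. Tmsb4x, which binds actin monomers, averaged 16.78 ± 0.08, and the actin gene Actg1 16.66 ± 0.11. Below the top 15 lay Scd2, a fatty acid desaturase, at 16.58 ± 0.10.

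The 5 metabolic lists had the highest median percentiles of the 29, from 91.3 to 98.8. All 12 citric acid cycle genes were bright, as were 14 of 16 glycolytic, 17 of 20 oxidative phosphorylation, 11 of 14 cholesterol synthesis and 11 of 13 fatty acid synthesis genes, against 25% of named genes. Eno1, the glycolytic enzyme enolase, averaged 16.55 ± 0.22 and Tpi1, an isomerase of the same pathway, 16.30 ± 0.22. Atp5f1b, a subunit of ATP synthase, averaged 16.02 ± 0.16. Cyp51, a sterol demethylase, averaged 15.60 ± 0.13, and Fdps, which makes farnesyl diphosphate, 15.38 ± 0.15. No measured gene of these 5 lists was variable.

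Within these narrow limits the arrays still differed. Controls 2 and 3 were the lowest pair for 13 of 16 glycolytic genes and 14 of 20 oxidative phosphorylation genes, against 12.4% of all named genes. The median glycolytic gene deviated by -0.34 from its own mean in control 2 and by 0.22 in controls 5 and 6. Slc2a1, the glucose transporter, was 11.85 in control 2 and 13.68 in control 5. Cholesterol genes followed another array, and 11 of 14 were lowest in control 4 (78.6%, against 23.5% of all named genes).

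Matrix genes ranged from among the brightest to the floor. Serpine2, a protease inhibitor of glia, averaged 15.16 ± 0.16, Agrn, a basal lamina proteoglycan, 15.10 ± 0.08, and Sparcl1, a matricellular protein of astroglia, 15.07 ± 0.54. Brain proteoglycans were bright in 8 of 16 cases. Ptprz1, a receptor phosphatase that is also a proteoglycan, led them at 15.50 ± 0.36, before Bcan, the brevican core protein, at 14.76 ± 0.36. Vcan, the versican core protein of precursor matrix, averaged 13.57 ± 0.48, and Tnr, an oligodendrocyte tenascin, 13.20 ± 0.74.

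Genes of fibrous connective tissue were lower. Only 1 of 15 collagen chains was bright, Col5a2 at 12.94 ± 0.41, and none was dim. Small leucine-rich proteoglycans were dim in 6 of 8 cases, with Lum at 7.24 ± 0.28 and Dcn at 7.65 ± 0.52. Mmp9, a gelatinase, was near the bottom of the ranking at 7.01 ± 0.09.

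A few matrix genes varied. Timp1, an inhibitor of metalloproteinases, was 14.31 and 13.96 in controls 4 and 5 and 11.73 to 12.92 in the other 4. Spp1, the secreted phosphoprotein osteopontin, was lowest in control 3 at 8.01 and highest in control 6 at 11.16. Postn, an adhesive protein of connective tissue, was 8.33 in control 2 and 10.84 in control 6. Tnc, the glial tenascin, lay just under the threshold, from 12.06 in control 1 to 14.77 in control 5 (SD 0.98). Beside these, the 16 fibroblast, pericyte and smooth muscle genes were never bright, and their median deviation ran from -0.34 in control 1 to 0.27 in control 6. Its part in the matrix values was not tested. The SDs of Spp1 and Postn dropped to 0.65 and 0.62 when the table median was the added constant, that of Timp1 to 0.96 without control 4, and that of Spp1 to 0.945 and 0.963 without control 3 or 6.

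Receptors and transducers of the 2 factors were also read in the controls. For BMP, the type I receptor Bmpr1a averaged 13.22 ± 0.20, Acvr1 11.17 ± 0.28, and the type II receptors Bmpr2 11.98 ± 0.59, Acvr2a 10.99 ± 0.20 and Acvr2b 12.12 ± 0.16. The transducers Smad1 (13.76 ± 0.14), Smad5 (14.05 ± 0.31) and their partner Smad4 (13.46 ± 0.21) were bright, and Smad9 was lower at 11.03 ± 0.77. Inhibitory Smad6 and Smad7 were at 9.0 ± 0.34 and 9.62 ± 0.33. Targets of the pathway were bright in the controls, whose label names no BMP. Id3 averaged 15.68 ± 0.33, Id2 15.47 ± 0.25, Id1 14.90 ± 0.28 and Id4 13.02 ± 0.51. Of the 15 members of this list, which counts these targets with the receptors and transducers, 8 were bright, none was dim and none was variable. The bright ones were Id1, Id2, Id3 and Id4, the receptor Bmpr1a, and Smad1, Smad4 and Smad5. The other receptors and transducers were not bright.

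For CNTF, the receptor's specific subunit Cntfr averaged 10.90 ± 0.34, the shared signalling chain Il6st 12.30 ± 0.20, and Lifr, the other signalling chain, 8.46 ± 0.45, little above the dim threshold. A second Lifr probe set read 8.12. Jak1 (14.07 ± 0.18) and Stat3 (13.24 ± 0.52) were the 2 bright members of 11, with Jak2 at 11.60 ± 0.14, Tyk2 at 10.41 ± 0.19 and the feedback inhibitor Socs3 at 8.87 ± 0.37. The ligand Cntf itself averaged 11.43 ± 0.34. Lif, a related ligand, and Il6r, the interleukin-6 receptor, were dim at 7.23 ± 0.34 and 7.29 ± 0.37. Stat3 ranged from 12.51 in control 1 to 14.06 in control 5.

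Other growth factor receptors were bright in 6 of 14 cases. Ntrk2, the receptor for brain-derived neurotrophic factor, ranked next to Pdgfra in this list at 14.08 ± 0.74, while the neuregulin receptor Erbb3 was dim at 8.22 ± 0.18. Control 4 was lowest for 8 of the 14 (57.1%, against 23.5% of all named genes).

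The 10 bright genes with the smallest SDs were in none of the 29 lists. Gtf2h5, a subunit of the transcription factor TFIIH, lay between 14.32 and 14.38 in all 6 controls (SD 0.02). Hsd17b10, a mitochondrial dehydrogenase, had an SD of 0.03, as did Mier1, Nxf1, which exports mRNA, Ppp3ca, a calcineurin subunit, Skic8, Cdip1, Naxe and Manbal. Ntmt1, an N-terminal methyltransferase, completed the 10 with an SD of 0.04. Other probe sets of Gtf2h5, Mier1, Ppp3ca, Ntmt1 and Cdip1 were less bright and less steady. Their SDs ran from 0.084 to 0.390, both for Ppp3ca, so these small SDs hold for the probe set used.

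**Figure D3:**
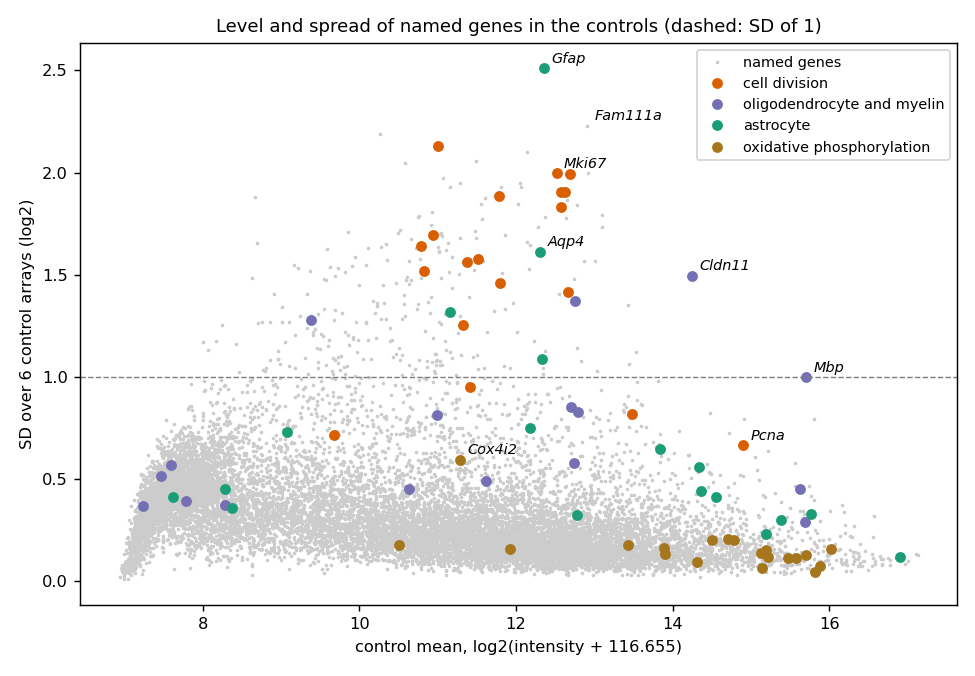
Control mean as log2(intensity + 116.655) against SD over 6 control arrays for 14217 named genes (grey), with 4 lists in colour and a dashed line at an SD of 1. Cell division genes lie above the line in 15 of 19 cases, oxidative phosphorylation genes in none of 20, and Gfap is highest at 2.51.

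Genes of cell division varied most as a group. Of 19 measured, 15 had an SD of at least 1, against 1.87% of named genes, and the list's median SD was 1.58 against 0.28 for all named genes. Mki67, a nuclear protein of cycling cells, was 13.45 in control 1, 11.09 in control 2, 9.24 in control 3, 14.19 in control 4, 14.37 in control 5 and 12.76 in control 6. Controls 2 and 3 were thus below all others and controls 4 and 5 above all others. Top2a, which untangles chromosomes, gave 13.68, 11.12, 9.52, 14.25, 14.65 and 12.93. Bub1b, a spindle checkpoint kinase, gave 12.28, 8.56, 8.12, 12.57, 13.05 and 11.44.

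The same order of arrays recurred through the list. Controls 2 and 3 were the lowest pair for 18 of 19 genes and controls 4 and 5 the highest pair for 17, against 12.4% and 15.9% of all named genes. The median gene lay at -1.46 and -2.28 from its own mean in controls 2 and 3 and at 1.40 and 1.64 in controls 4 and 5. Replication genes with smaller SDs kept to it, such as Pcna, the polymerase clamp, at 14.33 in control 3 and 15.86 in control 4 (SD 0.67). In choices made after seeing the data, 3 of the 19 had an SD of at least 1 without controls 2 and 3, and 12 without controls 4 and 5. Leaving out arrays at an extreme lowers an SD by construction. In bulk RNA, fewer dividing cells and less RNA per dividing cell cannot be told apart.

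Of the 15 largest SDs, 3 belonged to the cell division list (Bub1b, Mki67 and Top2a). Next after Gfap came Fam111a, a protease that acts at replication forks, at 13.20, 9.87, 10.63, 15.26, 15.04 and 13.44 (SD 2.23). Then followed Troap, Bub1b, Pimreg, the spindle kinase Ttk, the tubulin Tubb6, the kinase subunit Cks2, Mki67, Top2a, the kinetochore gene Spc24, the cytokinesis gene Ect2, the kinase Melk, and the spindle and kinetochore genes Knstrn and Cenpf, with SDs from 2.19 to 1.93. Control 2 or 3 was lowest for each of these 14 genes after Gfap.

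Inhibitors of the cell cycle did not share one course. Cdkn1a, which encodes p21, was 12.51 and 13.33 in controls 4 and 5 and between 8.91 and 10.51 in the others (SD 1.78). Cdkn1c, which encodes p57, was lowest in the same 2 arrays, at 14.90 and 14.74, and 15.90 to 16.59 in the others. Cdkn1b, which encodes p27, stayed between 13.74 and 14.40.

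Promoters of 3 cell division genes and of Gfap are shown because the former moved together and the latter took its own course. They are the last 150 bases before the start of transcription in RefSeq (build GRCr8), on the gene's strand. Capitals mark CCAAT, the box bound by NF-Y, which reads ATTGG on the other strand, and TTTGAA, an element known from cell cycle promoters, which reads TTCAAA on the other strand.
Cdk1 (chr20:19265143-19265292, plus strand): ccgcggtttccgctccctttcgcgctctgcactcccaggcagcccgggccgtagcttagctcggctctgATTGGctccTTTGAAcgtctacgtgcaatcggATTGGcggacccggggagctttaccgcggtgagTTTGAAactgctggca
Ccnb2 (chr8:79981659-79981808, minus strand): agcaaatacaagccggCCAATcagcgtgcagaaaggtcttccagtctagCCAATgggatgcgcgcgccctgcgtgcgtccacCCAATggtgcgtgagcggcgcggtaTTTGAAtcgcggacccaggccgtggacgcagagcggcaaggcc
Mki67 (chr1:199952594-199952743, minus strand): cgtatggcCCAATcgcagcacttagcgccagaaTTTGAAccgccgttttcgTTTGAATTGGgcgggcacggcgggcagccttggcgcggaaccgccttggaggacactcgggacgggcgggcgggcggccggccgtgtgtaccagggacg
Gfap (chr10:88361662-88361811, minus strand): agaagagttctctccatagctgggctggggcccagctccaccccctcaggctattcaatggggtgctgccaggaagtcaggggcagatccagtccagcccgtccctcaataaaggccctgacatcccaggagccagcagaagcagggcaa
Cdk1, the mitotic kinase, was 13.66, 10.79, 9.71, 14.06, 14.38 and 12.85 in controls 1 to 6. Ccnb2, a mitotic cyclin, was 14.10, 10.96, 9.65, 13.52, 14.00 and 13.22. In the Mki67 promoter the 2 motifs share 1 base.

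Over the 250 bases before the start, CCAAT occurred in 12 of the 16 cell division promoters in the RefSeq table (75%), against 35.1% of 11700 named genes. TTTGAA occurred in 7 (43.8%, against 10.9%), and both in 6 (37.5%, against 4.04%). Among 157 variable genes whose lowest pair was controls 2 and 3, CCAAT occurred in 57.3%, TTTGAA in 24.8% and both in 19.7%. Myelin genes had CCAAT in 4 of 13 promoters and TTTGAA in none. A match is only these letters in this window and shows no binding.

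The course of controls 2 and 3 against 4 and 5 ran through the variable genes as a set. Of 266, 184 (69.2%) had controls 2 and 3 as the lowest pair, against 12.4% of all named genes. Controls 4 and 5 were the highest pair for 184 (69.2%), against 15.9%. The set was chosen by SD over these same arrays, so the counts describe it and test nothing. Only 27 of the 266 belonged to any of the 29 lists. Among the rest were further genes of cell division, such as Ttk, Spc24 and Cenpf named above. Genes outside the cell cycle were there too, and their share was not counted. The examples that follow were chosen after their values were seen. Lgals3, a galectin, was 13.91 and 13.25 in controls 4 and 5 and 9.49 and 9.64 in controls 2 and 3. S100a10, an annexin partner, was 15.18 and 15.10 against 11.22 and 11.17 in the same arrays.

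A smaller set ran the other way. Controls 4 and 5 were the lowest pair for 21 variable genes (7.89%, against 15.8% of all named genes). Frzb, a secreted Wnt antagonist, was 11.51 and 10.65 in controls 4 and 5 and 13.35 to 14.36 in the other 4. Mfap4, a microfibril protein, was 10.52 and 10.37 there, 10.76 in control 6, and 12.47 to 13.42 in controls 1 to 3. These examples too were chosen after their values were seen. Just inside the threshold were Plcd4 (SD 1.005), Cpne2 (1.008) and Mtfr2 (1.011), and just outside were Mbp (0.999), Adhfe1 (0.998) and Nab2 (0.997).

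**Figure D4:**
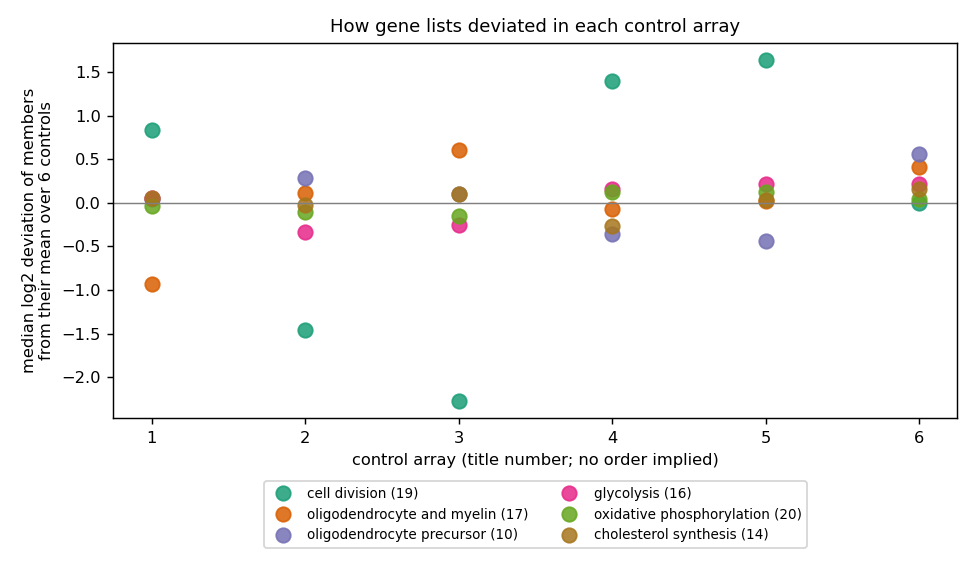
Median log2 deviation of list members from their own mean over the 6 controls, for 6 lists (measured members in brackets), by control array. Cell division spans -2.28 in control 3 to 1.64 in control 5, myelin is lowest in control 1 at -0.93, and oxidative phosphorylation stays between -0.15 and 0.13.

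The number in the title was then followed into arrays that had not been used to choose the variable genes. The gene lists counted below differ in this, because they were chosen with earlier results of these data known. In the 12 treated arrays, a limma moderated F test asked whether arrays of 1 number deviated together after the BMP and CNTF means had been removed. The test covers any difference between the numbers, and its p-values do not say which number is high or low. It called 4482 of 31042 probe sets (14.4%) at a Benjamini-Hochberg adjusted p under 0.05, and 2526 of 14217 named genes (17.8%). Of the 266 genes that were variable in the controls, 210 (78.9%) were called, against 16.6% of the other named genes. The labels do not say what the number stands for. Without the intensity trend in limma's variance the test called 1445 probe sets and 117 of the 266. With the 10th percentile as the added constant, 664 genes were variable and 265 of them (39.9%) were called. The count of probe sets also moved by over 1.5 times without BMP 3, 4, 5 or 6 (2813, 2030, 2524 and 2824) and without CNTF 4, 5 or 6 (2530, 2444 and 2790).

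Cell division genes were called in 18 of 19 cases, against 17.8% of named genes. Mki67 was highest in numbers 4 and 5 in the treated arrays too, at 14.06 and 14.04 in BMP arrays, where the others lay between 11.59 and 13.08, and at 14.22 and 14.19 in CNTF arrays, where the others lay between 11.87 and 12.71 (limma adjusted p = 0.0116). Top2a gave a limma adjusted p of 0.00609 and Fam111a of 0.000588. Numbers 4 and 5 were the highest pair for 15 of 19 cell division genes in BMP arrays and 17 of 19 in CNTF arrays, against 10.6% and 11.9% of named genes. The low pair did not carry over in the same way, and numbers 2 and 3 were the lowest pair for 6 of 19 in BMP arrays and 1 of 19 in CNTF arrays, against 9.62% and 11.2% of named genes.

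Low myelin signal stayed with number 1. In BMP arrays 11 of 17 myelin genes were lowest in number 1 and in CNTF arrays 13 of 17, against 17.6% and 20.2% of named genes. Cldn11 was 8.54 in BMP 1 and 12.001 to 12.982 in the other BMP arrays, and 13.09 in CNTF 1 and 15.36 to 16.11 in the other CNTF arrays (limma adjusted p = 0.00342). Mag gave an adjusted p of 0.00607 in the same limma test, and Mbp, with 9.33 in BMP 1 and 13.59 to 14.95 in the others, 0.0368. Enpp6 was not called (limma adjusted p = 0.0745). In all, the test called 7 of the 17 myelin genes, against 17.8% of named genes.

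Astrocyte genes were called in 9 of 18 cases, against 17.8% of named genes. S100b (limma adjusted p = 0.00041) and Aqp4 (0.00398) were among them, with Aqp4 at 13.64 in BMP 1 and 12.29 in CNTF 1, the lowest array of each group. Gfap, with the largest SD in the controls, was not called (limma adjusted p = 0.0533). Its treated values lay between 13.56 and 15.43 in BMP arrays and between 15.78 and 16.53 in CNTF arrays, a narrower range than in the controls. Nor were Pdgfra (0.377), Olig2 (0.145), Nes (0.0744) and Slc1a3 (0.0627) called, whereas Cspg4 was (0.0221).

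**Figure D5:**
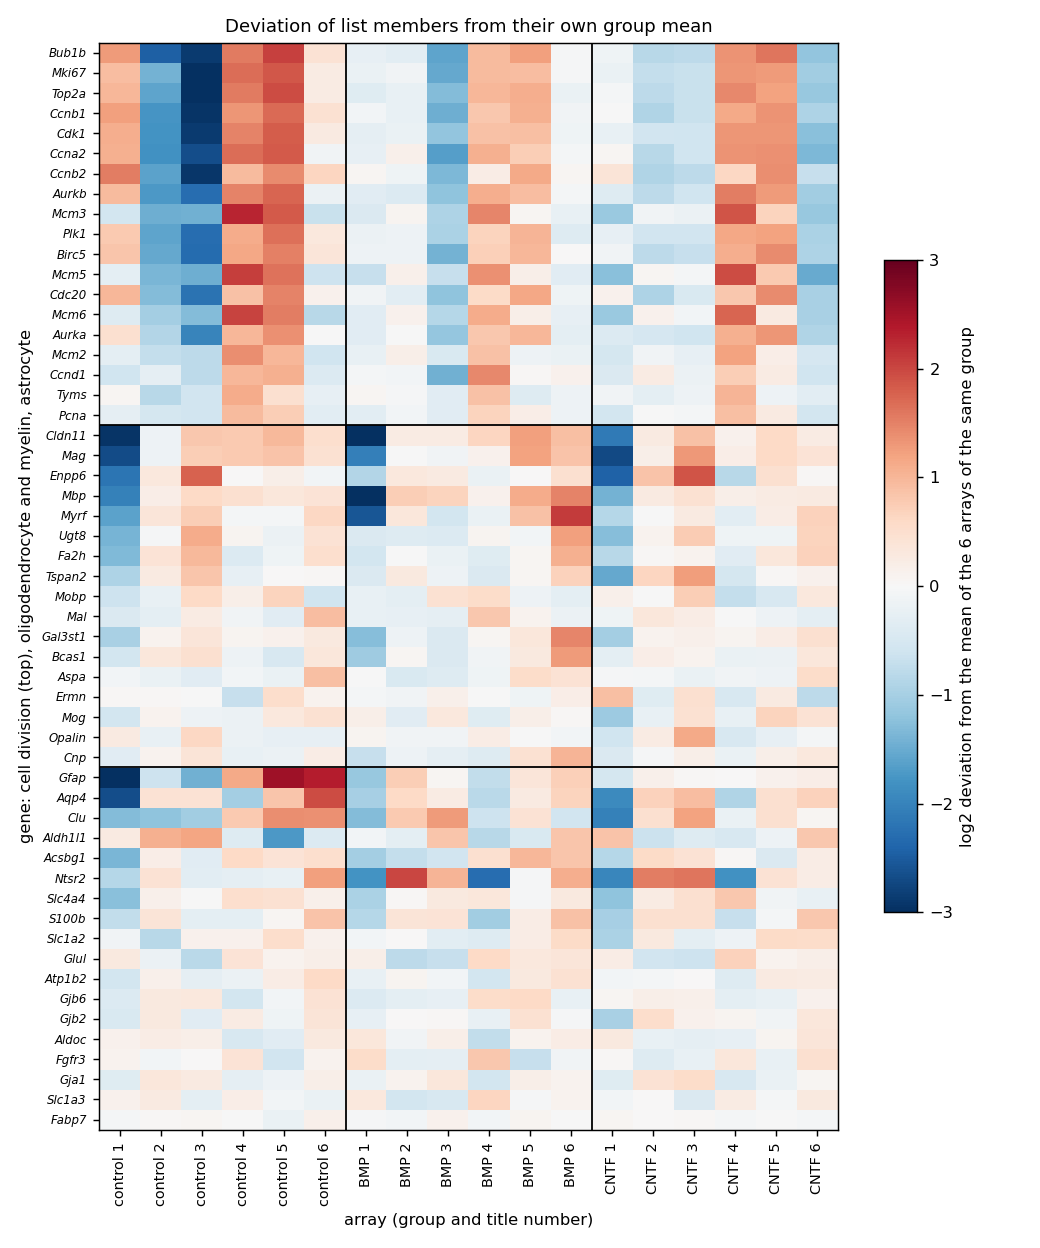
Log2 deviation of each cell division, myelin and astrocyte gene from the mean of the 6 arrays of its own group, for control, BMP and CNTF arrays by title number (red above, blue below, colours end at 3 in either direction). Most cell division genes are red in numbers 4 and 5 of every group, and myelin genes such as Cldn11 and Mag are blue in number 1 of every group.

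Among metabolic lists the same limma test called all 14 cholesterol synthesis genes, 13 of 16 glycolytic, 6 of 13 fatty acid synthesis, 5 of 12 citric acid cycle and 1 of 20 oxidative phosphorylation genes, against 17.8% of named genes. The order of arrays seen for cholesterol genes in the controls did not recur. Number 4 was lowest for 0 of 14 in BMP arrays and 0 of 14 in CNTF arrays. In CNTF arrays numbers 2 and 3 were their lowest pair for 9 of 14. For glycolytic genes the low pair of the controls, numbers 2 and 3, did recur. It held for 10 of 16 in BMP arrays and 12 of 16 in CNTF arrays, against 9.62% and 11.2% of named genes. For oxidative phosphorylation genes it held for 5 of 20 in BMP arrays and 5 of 20 in CNTF arrays. None of 11 endothelial genes and 1 of 16 microglial genes was called.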

How the data were processed

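RNA of 18 rat samples was measured on 1-colour Affymetrix arrays, with 31099 probe sets each. The authors deposited linear intensity values, already summarised and scaled, since after trimming 2% at each end the mean lay between 2500.7 and 2500.8 on every array. The summary method was not given in the sources used here. Values were taken as log2(intensity + 116.655), computed from the deposited intensity, and 57 control probe sets were left out. Of the rest, 20826 had 1 gene symbol in the platform annotation, 436 several and 9780 none, and 20758 matched RefSeq by gene ID. A gene was its brightest probe set over 18 arrays. No depth applies to arrays, and precision is limited by their number.

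The title number was tested in the 12 treated arrays with limma 3.58.1 in R 4.3.3 (group plus number, intensity trend, Benjamini-Hochberg over 31042 probe sets). The script was tested on simulated data first. Marker pairs were compared in Python 3.11.15 by exact permutation of 6 arrays.

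Genes were named by a rule: 10 markers, the 15 highest means, the 15 largest SDs, the 10 smallest SDs among bright genes, 4 members of each list, and all BMP and CNTF pathway members, 168 in all. Further list members are named as examples. The members and lists were chosen with earlier results of these data known. Alternatives were other added constants, quantile normalization, the mean of a gene's probe sets, a filter on dim values, another measure of spread, no intensity trend and each array left out.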

Additional observations from a re-analysis of the deposited data

Results flagged for a closer look

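Among the 168 genes named by rule, 10 had 1 control far from the other 5 by Dixon's criterion, which chance meets in about 1 in 20 groups. Control 1 was low for Mbp (13.684, others 15.901 to 16.303) and for Cldn11 (11.308, others 14.099 to 15.218), both myelin genes. Olig1 was low in control 3 (15.279, others 15.578 to 15.630), and Ntmt1 in control 4 (12.573, others 12.639 to 12.668). Single high values were those of Cyp51 in control 6 (15.849), Hsd17b10 in control 6 (14.066), Mier1 in control 4 (13.040), Foxd3 in control 5 (8.229), Gad2 in control 2 (8.502) and Lama2 in control 3 (7.886). Foxd3, Gad2 and Lama2 were dim on average, and for Hsd17b10, Mier1 and Ntmt1 the whole range was under 0.1 on the log2 scale. No cause was tested for any of the 10.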

How the results depend on the processing

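No paired analysis was possible because no test here compares groups, and the title number that could pair arrays is itself the term tested. The count of 266 variable genes became 664 with the 10th percentile of the table as the added constant and 104 with the table median, and 173 without controls 2 and 3 together (115 of them shared). Without controls 4 and 5 together it was 193 (135 shared). Both pairs were chosen after seeing the data. Leaving out each control in turn gave 254 to 318. For the number test, 4482 probe sets became 1445 without the intensity trend and 2030 to 4570 with each treated array left out. Of the control-variable genes, 210 of 266 called (78.9%) became 117 of 266 (44%) without the trend. They were 94 of 104 (90.4%) with the table median as constant and 265 of 664 (39.9%) with the 10th percentile. With each treated array left out, 148 to 225 of the 266 were called. With each control left out the variable set itself changed, and 74.7% to 78.9% of it was called. For the marker pairs, leaving out each control gave 0.839 to 0.960 for Olig2 and Pdgfra, which 5 arrays cannot bring past the threshold, -0.193 to 0.909 for Gfap and Mbp, -0.931 to 0.526 for Gfap and Nes, -0.710 to 0.017 for Pdgfra and Mki67 and -0.173 to 0.511 for Cspg4 and Pdgfra. The cause of these changes was not tested. Signals near the constant carry little information on level, which limits what can be said of dim genes.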
